A study of Mus musculus with 2 samples.

Results

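The NKR-P1 receptors and Ncr1 were followed through the immune cells of the liver of dnTGFβRII (TG) and wild type (WT) C57BL/6 mice. The 6 genes were Klrb1a, Klrb1b, Klrb1c, Klrb1f, Ncr1 and Styk1, chosen by name, and all 6 were among the 13528 genes of the deposited count table. The NK1.1 antibody, which binds the product of Klrb1c, and the CD335 antibody, which binds that of Ncr1, were read beside them in the same cells. TG mice express a human TGF-β RII that acts as a dominant negative, driven in T cells by the mouse CD4 promoter, and were studied as a model of primary biliary cholangitis. CD45+ cells of the liver of 10-week-old mice, by the labels, were prepared with Percoll and lysis of red cells, stained with 49 oligonucleotide-linked antibodies and captured with BD Rhapsody, in which transcripts of 1 cell are counted as unique molecular identifiers (UMIs). Each of the 2 capture libraries pooled 2 genotypes, TG with IFN-γ ARE-Del-/- in the first and WT with p40-/-IL-2Rα-/- in the second, and the deposited metadata named 4647 TG and 7282 WT cells, 11929 in all. Of the other 2 genotypes no cell was named, and they were not compared here.

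There was 1 library per genotype, so no test between TG and WT was possible, and an effect of genotype and one of the capture cannot be told apart. Values are counts per 1000000 UMIs of the same cells (CPM), from UMIs summed over cells, with exact 95% Poisson intervals. Shares of cells carry Clopper-Pearson intervals, log2 ratios of TG over WT carry exact binomial intervals, and all of these cover counting error only. A ratio was counted as higher or lower at 1.5-fold or more with at least 20 UMIs over both genotypes. TG cells held 18498477 UMIs with a median of 3298 per cell and WT cells 22216379 with a median of 2654. The authors named cells partly by NK1.1 and clustered them on these data, without listing the genes used. Levels by cell type and cluster are therefore a description. The number of mice behind each genotype was not given in the sources used here.

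Natural killer cell receptor protein 1 (NKR-P1) molecules are lectin-like receptors encoded in the NK gene complex. They recognise Clr proteins, the products of Clec2 genes, on neighbouring cells. Klrb1a, Klrb1c and Klrb1f encode activating or coactivating forms and Klrb1b the inhibitory form, which binds the Clec2d product and recruits the phosphatase encoded by Ptpn6. Klrb1c encodes NK1.1, the antigen used to identify NK and NKT cells of C57BL/6 mice, and Klrb1f encodes a receptor for the Clec2i product. Ncr1 encodes NKp46, an activating receptor of the immunoglobulin superfamily that signals through the adaptors encoded by Fcer1g and Cd247 and marks NK cells and type 1 innate lymphoid cells. Styk1 encodes a membrane-bound kinase-like protein found in NK cells.

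The 4 NKR-P1 members lay within 448238 bases of chromosome 6 in GRCm38, among 10 protein-coding genes that included Clec2g, Clec2h and Clec2i. The span also holds Klrb1, a further gene of the family and no member here, which was 8.76 CPM in TG and 8.72 in WT NK cells, from 20 and 14 UMIs. Klrb1a (ENSMUSG00000030361) lay at chr6:128609227-128623533, Klrb1c (ENSMUSG00000030325) at chr6:128778485-128789215 and Klrb1b (ENSMUSG00000079298) at chr6:128813706-128826331, all on the minus strand. Klrb1f (ENSMUSG00000030154) lay at chr6:129045901-129057464 on the plus strand, and Styk1 (ENSMUSG00000032899) on the same chromosome at chr6:131299142-131353597 on the minus strand. Ncr1 (ENSMUSG00000062524) lay at chr7:4337724-4345164 on the plus strand. Of all stretches of 50 bases in their transcripts, 9.92% in Klrb1a, 27.2% in Klrb1b and 17% in Klrb1c also occurred in another gene, among them the other two and Gm44511, a gene model that overlaps Klrb1b and Klrb1c. For Klrb1f, Ncr1 and Styk1 this share was 0. Reads in the shared stretches of Klrb1a, Klrb1b and Klrb1c may have been assigned to the wrong gene or dropped. Gene models on the minus strand, Gm43992 and Gm44000, overlap Klrb1f.

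The 250 bases before the first RefSeq start of each gene are shown because the genes varied together across cell types. The build is GRCm38.p6 and each sequence is read 5′ to 3′ on the strand of its gene. Capitals mark the letters TGTGGT, a core of RUNX sites, and GGAAGT, a core of ETS sites, on either strand. In order the windows are chr6:128622935-128623184 for Klrb1a, chr6:128788642-128788891 for Klrb1c and chr6:128826316-128826565 for Klrb1b, on the minus strand, and chr6:129045651-129045900 for Klrb1f and chr7:4337465-4337714 for Ncr1, on the plus strand.
Klrb1a: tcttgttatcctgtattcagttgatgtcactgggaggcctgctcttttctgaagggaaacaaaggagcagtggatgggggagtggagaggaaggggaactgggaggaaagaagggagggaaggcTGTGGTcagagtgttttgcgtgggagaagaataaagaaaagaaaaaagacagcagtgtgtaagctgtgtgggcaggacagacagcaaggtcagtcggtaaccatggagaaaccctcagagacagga
Klrb1c: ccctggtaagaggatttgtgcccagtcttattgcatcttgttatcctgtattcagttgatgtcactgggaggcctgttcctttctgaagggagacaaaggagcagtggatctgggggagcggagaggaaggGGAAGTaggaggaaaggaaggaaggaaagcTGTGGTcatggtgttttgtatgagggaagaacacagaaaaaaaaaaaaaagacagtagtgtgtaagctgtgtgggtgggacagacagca
Klrb1b: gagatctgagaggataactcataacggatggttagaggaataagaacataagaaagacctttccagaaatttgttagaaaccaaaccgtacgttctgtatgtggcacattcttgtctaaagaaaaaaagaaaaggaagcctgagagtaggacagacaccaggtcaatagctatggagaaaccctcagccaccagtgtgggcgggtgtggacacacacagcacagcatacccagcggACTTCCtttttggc
Klrb1f: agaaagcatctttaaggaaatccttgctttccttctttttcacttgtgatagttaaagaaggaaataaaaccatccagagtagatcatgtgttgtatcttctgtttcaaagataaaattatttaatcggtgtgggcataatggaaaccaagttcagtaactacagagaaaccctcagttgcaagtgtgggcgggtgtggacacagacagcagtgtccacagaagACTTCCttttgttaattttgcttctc
Ncr1: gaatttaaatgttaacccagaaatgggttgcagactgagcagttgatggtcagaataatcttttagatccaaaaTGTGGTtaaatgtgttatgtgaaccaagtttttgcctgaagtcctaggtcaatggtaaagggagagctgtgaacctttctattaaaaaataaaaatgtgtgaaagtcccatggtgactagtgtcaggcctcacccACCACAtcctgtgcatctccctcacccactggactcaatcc
By GENCODE the Klrb1b window reached 16 bases into the first exon of a transcript and the Klrb1c window 5 bases into an exon of a longer transcript, and the other 3 windows held no exon. The windows of Klrb1a and Klrb1c were alike, with 188 identical of 215 aligned letters (87.4%), as were those of Klrb1b and Klrb1f over a shorter stretch, with 74 of 94 (78.7%). The RUNX letters were found 126 bases before the start in Klrb1a, 89 in Klrb1c, and 176 and 41 in Ncr1, the last as ACCACA on the other strand. The ETS letters were found 119 bases before the start in Klrb1c and, as ACTTCC on the other strand, 14 in Klrb1b and 26 in Klrb1f. The T-box letters AGGTGT were in none of the 5 windows. Of 32851 mouse promoter windows, 14.0% held the RUNX letters, 19.7% the ETS letters and 11.8% the T-box letters, so a match of this length is common.

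Cells named NK had the highest level of each of the 6 genes among the 13 named cell types in both genotypes. Of them, 90 of 759 in TG and 420 of 615 in WT had no UMI of the T cell genes Cd3d, Cd3e or Trac. In TG the Klrb1b interval overlapped that of the next type, 17 γδ T cells. CD8αα T cells, a cluster of CD3+ cells with Cd8a and little CD8β, came second for Klrb1a, Klrb1c, Klrb1f, Ncr1 and Styk1. Their interval overlapped that of the next type for Styk1 in both genotypes and for Klrb1f in TG. In WT the order of Klrb1c was 1424 CPM (1366 to 1483) in 615 NK cells, 816 (743 to 895) in 194 CD8αα T cells and 784 (763 to 806) in 2232 NKT cells, and the last 2 intervals overlapped. In TG it was 1096 (1054 to 1140) in 759 NK cells, 907 (857 to 960) in 410 CD8αα T cells and 439 (409 to 471) in 446 NKT cells, and no interval overlapped. Among these classes and CD8αβ T cells, Ncr1 in WT was 969 CPM (921 to 1018) in NK cells and 229 (191 to 273) in CD8αα T cells. It was 23.8 (18.7 to 29.9) in CD8αβ T cells and 2.27 (1.27 to 3.75) in NKT cells. Other types lay between the last 2, since NKT cells had rank 9 of 13. Monocytes, at 23.0 CPM (11.9 to 40.1), overlapped CD8αβ T cells.

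**Figure D1:**
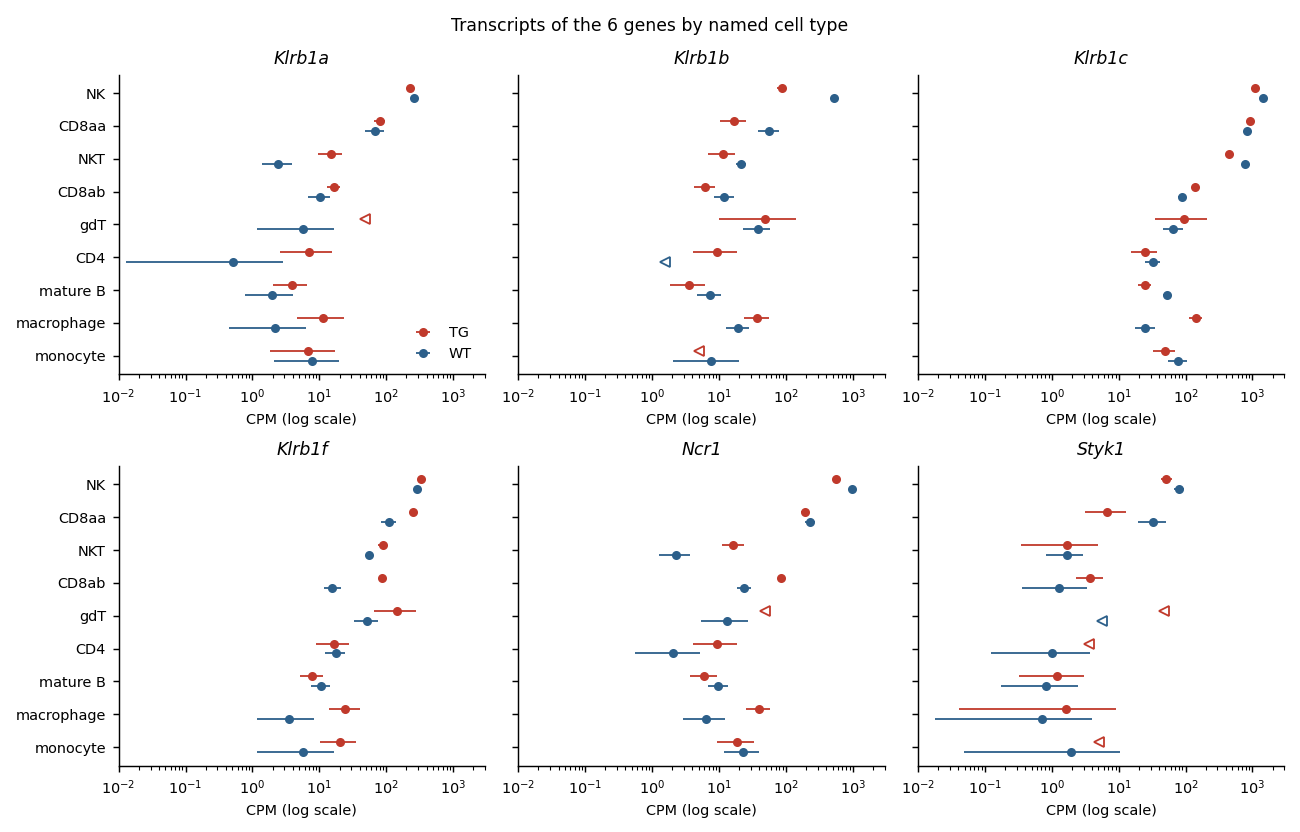
Levels of the 6 genes in 9 cell types. The horizontal axis is CPM on a log scale and each row is a cell type. Red points are TG, blue points WT, bars 95% Poisson intervals, and open triangles the level of 3 counts where no UMI was found. Cells named NK lie farthest to the right in every panel. Klrb1b in them separates the genotypes, at 86.3 CPM in TG and 528 in WT. Most of these TG cells held a UMI of Cd3d, Cd3e or Trac.

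The share of all UMIs of a gene that came from NK cells also differed between genes. In WT, NK cells were 8.45% of cells and held 84.4% of Ncr1 UMIs, 78.9% of Klrb1a, 75.3% of Styk1 and 74.5% of Klrb1b, but 43.8% of Klrb1f and 26.6% of Klrb1c. Of the WT Klrb1c UMIs, 60.2% came from NKT cells, which were 30.7% of WT cells. In TG, NK cells were 16.3% of cells and held 45.8% of Klrb1c UMIs, while NKT cells were 9.60% of cells and held 14.2%. A level summed over the liver therefore reflects both the number of cells of each type and the level in them.

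Mature B cells gave the background, and a measure of how far the libraries differ in it. Of their 5 members with 20 UMIs, 1 was higher in TG and 3 were lower, where 6.05% and 8.07% of genes were. Klrb1c was 24.4 CPM in TG and 53.4 in WT mature B cells, with a UMI in 4.40% and 4.22% of them, against 89.1% and 94.6% of NK cells. A small B cell cluster, cluster 17, whose cells nearly all held UMIs of T or NK genes, had Klrb1c at 243 CPM in TG and 246 in WT. It held 179 of the 192 Klrb1c UMIs of WT mature B cells and 44 of the 82 of TG. In cluster 1, the main B cell cluster, Klrb1c was 11.5 CPM in TG, from 36 UMIs, and 4.59 in WT, from 13. The ratio of the class thus did not follow that of its main cluster. Klrb1b there was 1.28 and 0.706 CPM, and Ncr1 2.23 CPM in TG and 0 in WT, where no UMI in 1329 cells set an upper bound of 1.30 CPM. Of the 21 other WT clusters with 50 or more cells, the lower bound was above the upper bound of cluster 1 in 15 for Klrb1c, 13 for Klrb1f, 10 each for Klrb1b and Ncr1, 9 for Klrb1a and 3 for Styk1.

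The cells named NK were not alike in the 2 genotypes, and the comparison of TG with WT depends on it. They fell in 3 clusters. Cluster 8 held 20.2% of the TG and 46.7% of the WT cells named NK, cluster 3 34.7% and 49.8%, and cluster 11 45.2% and 3.58%. Cluster 8 carried NK markers in both genotypes. Eomes, a transcription factor of conventional NK cells, was 391 CPM in TG and 692 in WT there, and Klra8, an Ly49 receptor, 1049 and 1711. In WT, cluster 3 was low in Eomes (28.8 CPM) and high in Itga1, the gene of CD49a, a marker of type 1 innate lymphoid cells (492 CPM, against 5.51 in cluster 8).

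The TG cells of clusters 3 and 11 went against the label. Cd3e, a chain of the CD3 complex of T cells, was 1608 CPM in TG and 122 in WT cells of cluster 3, and 1401 and 130 in cluster 11, against 133 and 67.5 in cluster 8. Trac, the constant part of the T cell receptor α chain, was 1143 and 245 CPM in cluster 3 and 992 and 324 in cluster 11. A UMI of Cd3d, Cd3e or Trac was found in 96.2% of TG and 35.0% of WT cells of cluster 3, in 99.7% and 22.7% of cluster 11, and in 48.4% and 28.9% of cluster 8. The 6 T cell genes summed to 6383 CPM in TG and 3163 in WT cells of cluster 3, 5114 and 1469 in cluster 11, and 1168 and 999 in cluster 8, and none was at 0. Of the 6, Cd3g, Trbc1 and Trbc2 were within 1.5-fold in cluster 3, at 855 and 880, 811 and 696, and 1352 and 1120 CPM. Cd4 was also higher in TG, at 546 against 20.4 CPM in cluster 3 and 122 against 13.8 in cluster 8, where it was found in 32.7% of TG and 2.09% of WT cells. Cluster 8 was thus the nearest of the 3 in Cd3e and Trac but also differed, in Cd4, Eomes and Klra8 and in Itga1, at 28.3 and 5.51 CPM. Its values are given beside the level of each member in NK cells. That term means all cells named NK throughout. The haemoglobin genes Hba-a1 and Hbb-bs moved with genotype too, at 537 and 530 CPM in WT NK cells, in 3.25% and 2.44% of them, and 0 and 1.31 CPM in TG. In cluster 8 they were 193 and 181 CPM in WT and 0 in TG. Their part in the ratios was not tested.

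In all cells named NK, 0 of the 6 genes were higher in TG and 3 were lower, Klrb1b, Ncr1 and Styk1. Of 9179 genes with 20 or more UMIs, 9.74% were higher and 11.6% lower. On the log2 scale the 6 genes had a median ratio of -0.50, and all genes -0.04. In cluster 8, 0 were higher and 1, Klrb1b, was lower, with a median of -0.18, where 9.73% of genes were higher and 13.1% lower. In cluster 3, 2 of 6 were lower and 0 higher, where 12.7% and 11.5% of genes were. In cluster 11, 3 of 5 were lower and 1 higher, where 23% and 31.6% were. Klrb1b was lower in each of the 3 clusters, Ncr1 in clusters 3 and 11, and Klrb1c in cluster 11 alone, which held 22 WT cells. Styk1 was within 1.5-fold in clusters 3 and 8 and had fewer than 20 UMIs in cluster 11. Klrb1f was the gene higher in cluster 11.

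Klrb1b, the inhibitory member, had the widest gap. In all NK cells it was 86.3 CPM (74.7 to 99.2) from 197 UMIs in TG and 528 (493 to 565) from 848 UMIs in WT, and was found in 13% and 57.2% of cells, or 7.51% and 35.3% after each cell was thinned to 1000 UMIs. The log2 ratio was -2.61 (-2.84 to -2.39). In cluster 3 it was 105 CPM (83.8 to 130) in TG and 753 (695 to 814) in WT, in 14.8% and 79.4% of cells, a log2 ratio of -2.84 (-3.19 to -2.51). In cluster 11 it was 19.4 CPM in TG and 410 in WT, from 18 and 19 UMIs. In cluster 8 it was 170 CPM (138 to 207) in TG and 277 (240 to 318) in WT, in 28.8% and 34.5% of cells, a log2 ratio of -0.71 (-1.07 to -0.35). In mature B cells, the background, Klrb1b was 3.57 and 7.24 CPM, from 12 and 26 UMIs, of which 8 and 24 were in cluster 17. The gap was thus present in each cluster of cells named NK, at levels well above that background, and was smallest in cluster 8. In clusters 3 and 11 it set TG cells, nearly all with a UMI of Cd3d, Cd3e or Trac, against WT cells mostly without. Over all NK cells the log2 ratio was -1.20 in cells without a UMI of Cd3d, Cd3e or Trac, and -0.38, within 1.5-fold, in the 26 TG and 85 WT cells without a UMI of the 6 T cell genes.

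**Figure D2:**
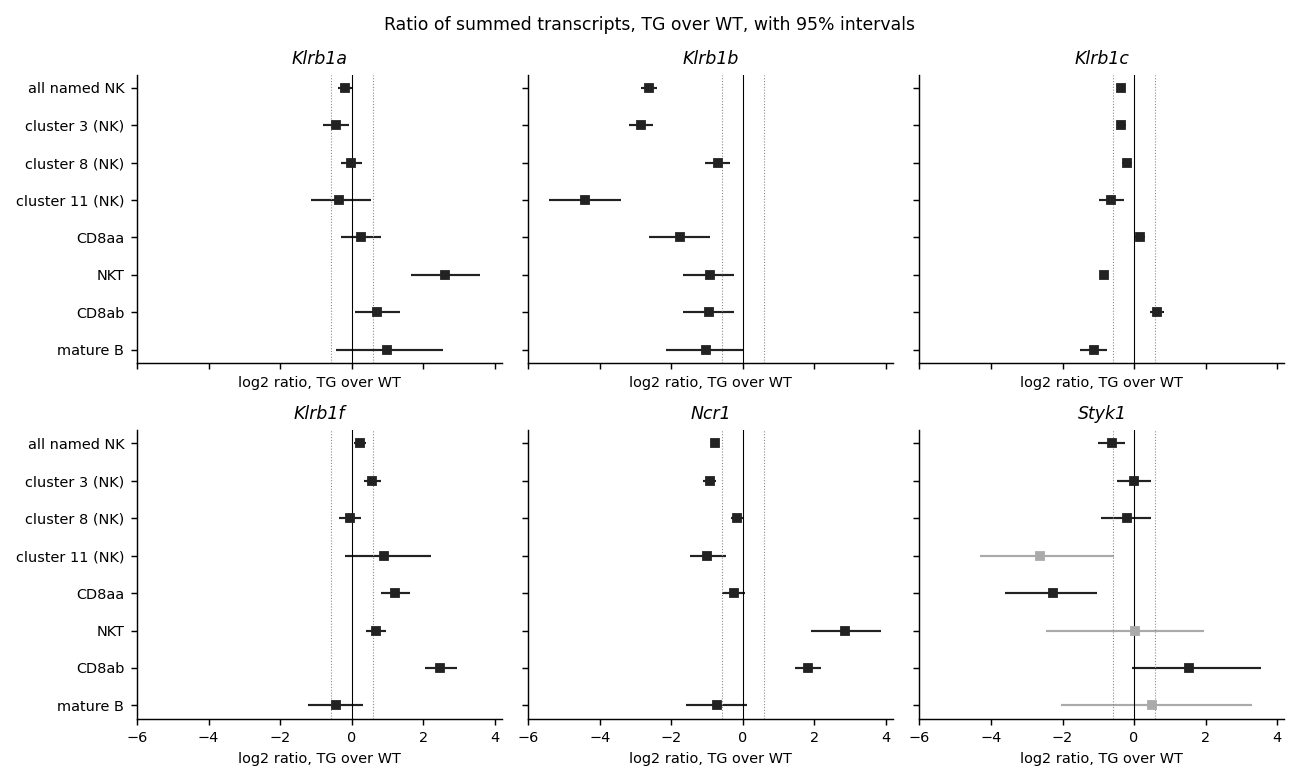
Log2 ratios of TG over WT for each gene. The horizontal axis is the log2 ratio, with bars for exact 95% intervals, and rows are all cells named NK, their clusters 3, 8 and 11, and 4 other cell types. Dotted lines mark 1.5-fold, and grey points rest on fewer than 20 UMIs. Klrb1b lies left of 0 in every group of cells named NK, nearest to 0 in cluster 8 at -0.71, while Klrb1f and Ncr1 lie right of 0 in CD8αβ T cells, at 2.47 and 1.82. In clusters 3 and 11 most TG cells held a UMI of Cd3d, Cd3e or Trac and most WT cells did not.

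Within WT, Klrb1b was 753 CPM in cluster 3 and 277 in cluster 8, a log2 difference of 1.44 (1.21 to 1.68), while Klrb1c differed by 0.00 (-0.12 to 0.13) and Ncr1 by -0.04 (-0.19 to 0.11). Within TG the order of Klrb1b was the opposite, at 105 CPM in cluster 3 and 170 in cluster 8. Klrb1a was lower in WT cluster 3 than in cluster 8 by a log2 difference of -0.68 (-0.98 to -0.39), and Styk1 higher by 0.56 (0.02 to 1.12). Of the 5 genes compared here between the WT clusters, Klrb1b had the widest gap.

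The cells of cluster 3 were then split by a UMI of Cd3d, Cd3e or Trac, a split chosen after the clusters had been seen. Among TG cells, Klrb1b was 68.8 CPM (51.4 to 90.2) in the 253 with such a UMI and 929 (631 to 1319) in the 10 without, from 31 UMIs. Among WT cells it was 679 CPM in the 107 with and 802 in the 199 without. Ncr1 was 480 and 1079 CPM in the same TG cells and 883 and 1012 in WT. The few TG cells of cluster 3 without a UMI of these 3 genes thus had Klrb1b and Ncr1 at the level of WT cells. Such cells could still hold Cd3g, Trbc1 or Trbc2. Over all cells named NK, 90 TG and 420 WT lacked the 3 genes, and 26 and 85 lacked all 6 T cell genes. In cluster 8 the split made little difference to Klrb1b, at 187 CPM with and 152 without in TG, and 279 and 276 in WT.

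**Figure D3:**
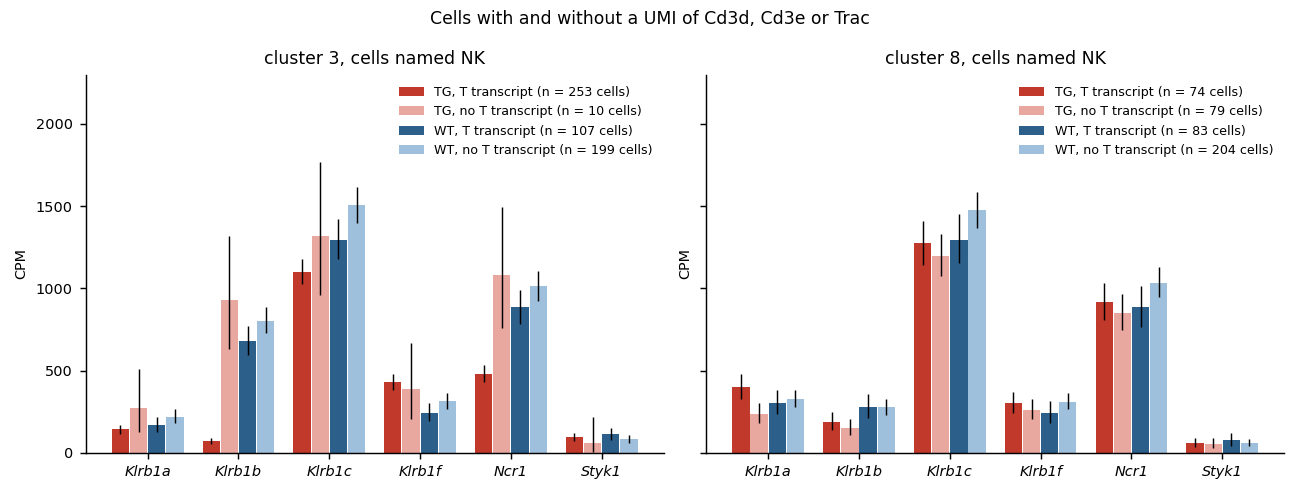
Levels of the members in clusters 3 and 8 by a UMI of Cd3d, Cd3e or Trac, called T transcript in the key. Bars give CPM from 0, with 95% Poisson intervals, in cells with and without a UMI of Cd3d, Cd3e or Trac, by genotype. In cluster 3 the TG bar of Klrb1b is at 68.8 CPM with and 929 without such a UMI, and the latter rests on 10 cells.

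Ncr1, the gene of NKp46, was 561 CPM (531 to 592) in TG and 969 (921 to 1018) in WT NK cells, a log2 ratio of -0.79 (-0.90 to -0.68). It was 506 and 961 CPM in cluster 3 (-0.93, -1.1 to -0.75) and 412 and 821 in cluster 11 (-1.0). In cluster 8 it was 883 and 988 CPM (-0.16, -0.33 to 0.00), within 1.5-fold. Over all NK cells without a UMI of Cd3d, Cd3e or Trac the log2 ratio was -0.24.

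Klrb1c, the gene of NK1.1, was 1096 CPM in TG and 1424 in WT NK cells, a log2 ratio of -0.38 (-0.46 to -0.29), within 1.5-fold. The ratios were -0.36 in cluster 3 and -0.20 in cluster 8, and -0.64 (-0.99 to -0.27) in cluster 11, past 1.5-fold and from 22 WT cells. Klrb1a, an activating receptor, was 225 CPM (206 to 246) in TG and 257 (232 to 283) in WT, and in cluster 8 the levels were 318 and 320, a log2 ratio of -0.01. Klrb1f was 331 CPM (308 to 355) in TG and 283 (258 to 311) in WT, and 281 and 289 in cluster 8. It was 426 and 285 CPM in cluster 3, a log2 ratio of 0.58 (0.33 to 0.82). In cluster 11 it was 280 and 151 (0.89, -0.17 to 2.22), the latter from 7 UMIs. In cluster 8 these 3 receptors were thus within 1.5-fold between the genotypes, though the interval of Klrb1c lay below 0 (-0.34 to -0.06). Klrb1b was the 1 of 6 members lower in TG there, where 13.1% of all genes were. No contrast between activating and inhibitory members can be drawn from 1 gene near that share.

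Styk1 was 51.7 CPM (42.8 to 61.9) in TG and 79.7 (66.5 to 94.8) in WT NK cells, a log2 ratio of -0.62 (-1.0 to -0.25). It was 93.8 and 93.5 CPM in cluster 3, 54.8 and 63.4 in cluster 8, and 14.0 and 86.4 in cluster 11, the last WT value from 4 UMIs in 22 cells. In NK cells without a UMI of the 6 T cell genes the log2 ratio was 0.73, in the other direction.

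The number of members found per cell was compared after each cell was thinned to 1000 UMIs. None of the 6 was found in 16.6% of TG and 5.20% of WT NK cells, and 3 were found in 15% and 28.9%. In cluster 8 these shares were 7.19% and 4.88% for none and 22.2% and 25.1% for 3. In cluster 8, Klrb1b was looked for in cells with and without a Klrb1f UMI. Other pairs of the 6 members are not given here, so this pair does not stand for them. In WT it was in 8.0% (2.99 to 16.6) of 75 cells with Klrb1f and 24.1% (18.5 to 30.4) of 212 cells without, and in TG in 7.89% (1.66 to 21.4) of 38 and 18.3% (11.7 to 26.5) of 115. The WT intervals did not overlap and the TG intervals did. In cluster 3 the WT shares were 57.5% and 49.1%, in the other order. These cells share 1 library, and sparse counts give such shares little weight.

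CD8αα T cells had Klrb1c at similar levels in both genotypes, at 907 CPM (857 to 960) in TG and 816 (743 to 895) in WT, a log2 ratio of 0.15 (0.00 to 0.31). Of the 6 genes, 1 was higher in TG, Klrb1f, and 2 were lower, Klrb1b and Styk1, where 14.1% of 8046 genes were higher and 9.09% lower. Klrb1f was 254 CPM (227 to 282) in TG and 109 (83.2 to 140) in WT, in 47.3% and 25.3% of cells, a log2 ratio of 1.22 (0.82 to 1.64). Klrb1b was 16.6 CPM in TG and 56.4 in WT, from 22 and 31 UMIs, and the 3 cells with the most UMIs held 36.4% and 41.9% of them. Styk1 was 6.79 CPM and 32.7 CPM, from 9 and 18 UMIs. Klrb1a was 80.0 and 67.3 CPM and Ncr1 192 and 229, both with intervals of the ratio that included 0. The class differed in make-up too. Trdc, the constant part of the T cell receptor δ chain, was found in 4.88% of TG and 42.3% of WT cells, and Hba-a1 was 0 CPM in TG and 1613 in WT. Without the cells with a Trdc UMI the log2 ratio was 1.26 for Klrb1f, -2.38 for Klrb1b and -1.99 for Styk1, and the 2 lower genes became 1, since fewer than 20 UMIs of the other were left. After thinning the 2 became 0, and the share over all genes was not computed for these settings. The part of the haemoglobin transcripts was not tested.

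Cells named NKT had lower Klrb1c in TG. It was 439 CPM (409 to 471) in TG and 784 (763 to 806) in WT, and was found in 50% and 77.2% of cells, or 27.1% and 50% after thinning, a log2 ratio of -0.84 (-0.95 to -0.73). In cluster 0, which held 403 of the TG and 1986 of the WT cells, it was 469 and 826 CPM (-0.82). The class differed in make-up between the genotypes too. Cd4 was found in 75.8% of TG and 30.7% of WT cells, at 634 and 162 CPM. Zbtb16, a transcription factor of NKT cells, was found in 11.9% and 22.4%. The part of this make-up in the ratios was not tested. Klrb1f had the other direction than Klrb1c, at 88.9 CPM (75.6 to 104) in TG and 55.4 (49.9 to 61.4) in WT, a log2 ratio of 0.68 (0.40 to 0.96). In cluster 0 alone it was 80.1 and 55.7 CPM, within 1.5-fold. There 1 of the 4 members with 20 UMIs was higher in TG and 2 were lower, where 10.7% and 8.18% of genes were. Klrb1b was 11.3 CPM in TG and 21.5 in WT (-0.92), and the 3 cells with the most UMIs held 55% of the 20 in TG and 7.04% of the 142 in WT. In all mature B cells it was 3.57 and 7.24 (-1.02), and in cluster 1, the main B cell cluster, 1.28 and 0.706.

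Klrb1a and Ncr1 were low in NKT cells but higher in TG. Klrb1a was 14.7 CPM (9.62 to 21.6) in TG and 2.42 (1.38 to 3.93) in WT, and Ncr1 16.4 (11 to 23.6) and 2.27 (1.27 to 3.75). The background leaned to TG as well. In cluster 1 of the B cells Klrb1a was 1.91 and 0 CPM and Ncr1 2.23 and 0, from 6 and 7 TG UMIs. At least 2 UMIs of T or NK genes were found in 39.1% of TG and 14.5% of WT cells of cluster 1. The Klrb1a values in NKT cells rest on 26 UMIs in 13 TG cells, 46.2% of them in 3 cells, and 16 UMIs in WT. The Ncr1 values rest on 29 and 15 UMIs, of which the 3 richest cells held 62.1% in TG and 73.3% in WT, with 10 and 8 UMIs in cluster 0. A UMI of Ncr1 was found in 14 TG cells, 10 of them in cluster 0, where Ncr1 was 6.41 and 1.39 CPM, a log2 ratio of 2.21 (0.72 to 3.75). The higher Ncr1 of TG NKT cells thus rests on few cells, and had the same direction in cluster 0. In all, 3 of the 5 members with 20 UMIs were higher in TG and 2 were lower, where 10.2% and 7.69% of 10051 genes were. After thinning to 1000 UMIs per cell the 3 higher became 0 and the 2 lower became 1, and the share over all genes was not computed there.

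NK1.1 on the surface, at the only gate used for this split, divided TG NKT cells more sharply in Klrb1c than WT NKT cells. A cell was called positive above the 99th percentile of mature B cells of its own library on the centred log ratio scale, which sets each antibody against the mean log count of all 49 in the cell. By this rule 51.3% of TG and 48.9% of WT NKT cells were positive, a difference of 2.42 points (-2.65 to 7.47), which turned to -20.0 with a 2-component mixture gate, -5.63 with the 95th percentile and -5.51 with cluster 1 of the B cells as the reference. In TG, Klrb1c was 751 CPM (696 to 809) in the 229 positive cells and 97.3 (77.4 to 121) in the 217 negative cells, a log2 ratio of 2.95 (2.62 to 3.30), and was found in 82.5% and 15.7% of them. In WT it was 897 CPM in 1092 positive and 675 in 1140 negative cells, a log2 ratio of 0.41 (0.33 to 0.49), and was found in 84.8% and 69.8%. At this gate the TG cells named NKT thus held a group low in both NK1.1 and its transcript. NK1.1 is the product of Klrb1c, so the split is not independent of the transcript and cannot locate its lower level. The split was not repeated with other gates, and with the mixture gate 66.2% of WT NKT cells were positive.

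The NK1.1-negative TG NKT cells differed in other genes as well. Zbtb16, which encodes PLZF, the defining transcription factor of NKT cells, was 17.8 CPM in negative and 66.1 in positive TG cells, and 102 and 113 in WT. Cd4 was 866 and 422 CPM in TG, and 183 and 141 in WT. Il2rb, a receptor chain for IL-2 and IL-15, was 1614 and 2816 CPM in TG, and 2513 and 2749 in WT. Cd3e was 1398 and 1394 CPM in TG. Klrb1f did not follow the split, at 81.9 CPM in negative and 95.4 in positive TG cells.

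**Figure D4:**
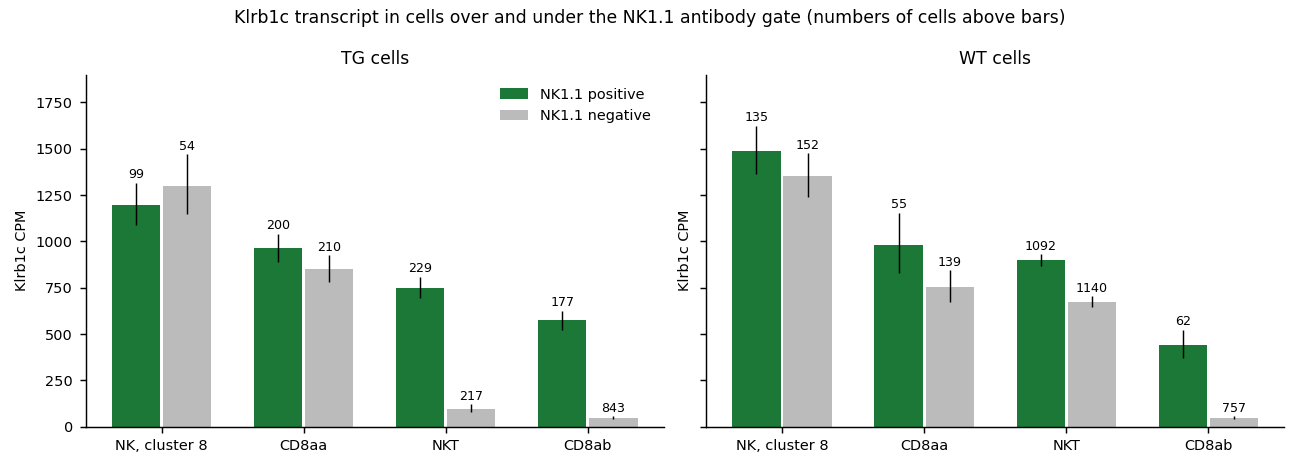
Klrb1c in NK1.1-positive and negative cells. The vertical axis is CPM with 95% Poisson intervals in cluster 8 and in CD8αα T, NKT and CD8αβ T cells, by genotype, with the number of cells in each group. In NKT cells the TG groups stand at 751 and 97.3 CPM and the WT groups at 897 and 675.

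CD8αβ T cells were low in the 6 genes, and TG cells were higher in most. Of the 6, 5 were higher in TG and 1 was lower, where 11.4% of 10309 genes were higher and 8.23% lower. The median log2 ratio was 1.11, against 0.03 for all genes. Klrb1f was 86.9 CPM (79.2 to 95.2) in TG and 15.7 (11.5 to 20.8) in WT, a log2 ratio of 2.47 (2.04 to 2.93). Ncr1 was 83.9 (76.3 to 92.1) and 23.8 (18.7 to 29.9), a log2 ratio of 1.82 (1.46 to 2.19). Cluster 7 alone held 409 of its 445 UMIs in TG and 59 of its 73 in WT. Klrb1c was 137 (127 to 147) and 88.1 (77.9 to 99.2), a log2 ratio of 0.64 (0.43 to 0.85). Klrb1a was 16.4 and 10.1 CPM and Styk1 3.77 and 1.31. The Styk1 values rest on 20 and 4 UMIs, with a log2 ratio of 1.53 (-0.05 to 3.54), an interval that included 0. The 3 cells with the most Styk1 UMIs held 45% of them in TG and 100% in WT. After thinning, Styk1 was found in 0.196% of TG and 0.244% of WT cells, so its place among the 5 is weak. Klrb1b, the one lower, was 6.22 CPM in TG and 12.1 in WT, and the 3 cells with the most UMIs held 63.6% of the 33 in TG and 32.4% of the 37 in WT. All mature B cells had 3.57 and 7.24 CPM of Klrb1b, a log2 ratio of -1.02 in the same direction, and cluster 1 of them 1.28 and 0.706. The lower Klrb1b of TG CD8αβ T cells thus rests on few cells at a low level.

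The clusters that make up the CD8αβ class had different shares in the genotypes. Cluster 4 held 14.2% of TG and 44.3% of WT CD8αβ T cells, cluster 7 31.3% and 16.1%, and cluster 12 24.4% and 8.91%. Within cluster 4 the members were near background, with Klrb1c at 19.4 and 5.72 CPM from 14 and 6 UMIs. Within cluster 7 they were higher and the direction was as in the class, with Klrb1f at 134 CPM in TG and 28.8 in WT, Ncr1 at 169 and 62.9, Klrb1c at 217 and 145, Klrb1a at 32.7 and 20.2, and Klrb1b at 12.4 and 30.9. Of the 5 members with 20 UMIs, 4 were higher in TG and 1 was lower, where 12.5% and 9.76% of genes were. In cluster 12, Klrb1c was 150 CPM in TG and 18.2 in WT, and Klrb1f 137 and 9.11, but the WT values rest on 73 cells with 4 and 2 UMIs. Ncr1 there was 34 CPM in TG from 25 UMIs and none was found in WT, where 3 counts are 13.7 CPM. Klrb1b was not found in cluster 12 in either genotype, with upper bounds of 5.02 and 16.8 CPM. In cluster 13, Klrb1c was 57.8 and 66.2 CPM and Klrb1f 13.4 and 14.5, while Klrb1a was 2.06 and 18.6, from 2 and 9 UMIs, and Ncr1 7.22 and 14.5, from 7 each. In cluster 18, Klrb1c was 26.7 CPM in 115 TG and 213 in 37 WT cells and Ncr1 2.43 and 33.7, from 1 and 3 UMIs, in the other direction than in the class, while Klrb1f was 43.8 and 33.7, from 18 and 3. In cluster 23, Klrb1c was 213 CPM in 15 TG and 256 in 76 WT cells and Klrb1f 21.3 and 21, from 1 and 6 UMIs. In cluster 12, 3 of the 3 members with 20 UMIs were higher in TG, where 19.6% of genes were. The gap in Klrb1f and Ncr1 was thus present within clusters 7 and 12 and not in each cluster of the class. Most Ncr1 UMIs of the class were in cluster 7. Its cells had a median of 7454 UMIs in TG and 6614 in WT, against 4557 and 2996 in the class.

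NK1.1-positive CD8αβ T cells had higher levels than negative ones in both genotypes. They were 17.4% of TG and 7.57% of WT cells, a difference of 9.78 points (6.80 to 12.7), which was 0.344 with the mixture gate and 22.1 with the 95th percentile. In TG, Ncr1 was 336 CPM in positive and 33.3 in negative cells, Klrb1f 247 and 54.8, Klrb1a 61.0 and 7.47, and Klrb1c 573 and 49.6. In WT, Ncr1 was 141 and 10.2 CPM, Klrb1f 53.4 and 11.3, Klrb1a 50.3 and 5.46, and Klrb1c 443 and 47.0. The positive TG cells were also lower in Cd8b1, the gene of the CD8β chain, at 342 against 842 CPM in negative cells, and higher in Tbx21, the gene of T-bet, at 344 against 182. Klrb1b was 26.0 and 2.26 CPM in TG, and 75.4 and 4.73 in WT. NK1.1 is the product of Klrb1c, so the Klrb1c values are not independent of the split. The groups also differed in depth and cluster. Positive and negative cells had medians of 4131 and 4633 UMIs in TG, and 4914 and 2934 in WT. Of cluster 7, which held most Ncr1 UMIs of the class, 29.2% of TG and 22.0% of WT cells were positive.

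The NK1.1 antibody itself was at higher levels in TG in every one of these cell types, and in B cells too. It made up 3.13% of antibody counts in TG and 1.06% in WT NK cells, 1.40% and 1.03% in NKT cells, 2.01% and 0.766% in CD8αα T cells, 0.708% and 0.273% in CD8αβ T cells, and 0.259% and 0.190% in mature B cells. The median centred log ratio in NK cells was 1.40 in TG and 1.03 in WT, and in mature B cells 0.55 and 0.37. The transcript had the other direction in NK cells, where Klrb1c was 1096 and 1424 CPM. By the B cell gate 58.6% (55.0 to 62.2) of TG and 44.6% (40.6 to 48.6) of WT NK cells were positive, 64.7% and 47.0% of cluster 8, 40.3% and 41.5% of cluster 3, and 48.8% and 28.4% of CD8αα T cells. Macrophages had a wider gap, at 39.4% in TG and 2.68% in WT, a difference of 36.8 points (27.7 to 46.3). Higher NK1.1 signal in TG was thus not confined to lymphocytes. Its cause in macrophages was not tested, and the other gates were not applied to them. The order of the genotypes in NK and CD8αα T cells, as in NKT cells, turned when the gate was set by a 2-component mixture instead, so the order depends on the gate. NK cells below the gate still had Klrb1c at 1069 CPM in TG and 1392 in WT, against 1115 and 1463 above it, at a median of 12 NK1.1 counts per TG and 9 per WT NK cell. TG cluster 3 was the cluster in which they differed most, at 1278 CPM in positive and 989 in negative cells, a log2 ratio of 0.37 (0.17 to 0.56), and in WT cluster 3 they were 1432 and 1413. Most NK cells below the gate thus still held the transcript.

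**Figure D5:**
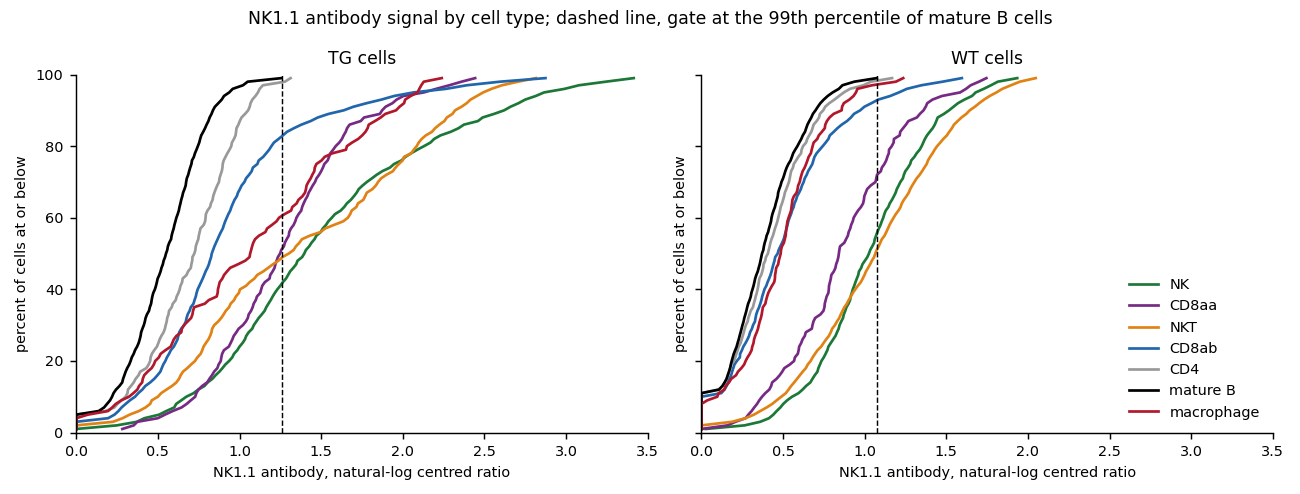
NK1.1 antibody by cell type. The left panel is TG and the right panel WT, the horizontal axis is the centred log ratio of NK1.1 (natural log), the vertical axis the cumulative percent of cells of 7 cell types, and the dashed line the gate of each library, 1.26 in TG and 1.07 in WT. The curves reach farther to the right in TG, with medians of 1.40 and 1.03 in NK cells and 0.55 and 0.37 in mature B cells. Of macrophages, 39.4% in TG and 2.68% in WT lie past the gate.

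CD335, the protein of Ncr1, had the direction of its transcript in NK cells. By the same rule 24.8% of TG and 35.9% of WT NK cells were positive, a difference of -11.2 points (-16.0 to -6.28). The size of this difference depended on the gate, with shares of 43.7% and 74.3% by a mixture gate and 33.9% and 52.5% by the 95th percentile. In cluster 3 the shares were 15.6% and 33.0% (-17.4, -24.1 to -10.4), and in cluster 8 43.1% and 39.0% (4.11, -5.41 to 13.7). In CD8αβ T cells they were 4.80% and 4.88% (-0.0801, -2.13 to 1.88), although Ncr1 was 83.9 and 23.8 CPM there. In NKT cells they were 2.91% and 2.20% (0.72, -0.67 to 2.80) and in CD8αα T cells 8.05% and 7.22% (0.83, -4.23 to 5.01). The values of the 3 T cell classes depended on the gate, at -17.9, -13.5 and -17.1 points in the same order with a mixture gate and 3.03, 5.34 and 16.5 by share of antibody counts. Ncr1 was 770 CPM in positive and 485 in negative TG NK cells, and 1109 and 895 in WT, and in cluster 8 1000 and 791 CPM in TG and 1035 and 958 in WT. In CD8αβ T cells it was 508 and 59.1 CPM in TG, and 132 and 19.1 in WT. Across the 13 named cell types Pearson's r between the log2 level of Klrb1c and the share of antibody counts from NK1.1 was 0.90 in TG and 0.52 in WT, and for Ncr1 and CD335 0.80 and 0.59. The cell types of a genotype share a library, and r is given as a description.

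Klrb1b was also found in γδ T cells and macrophages. In 192 WT γδ T cells Klrb1b was 37.7 CPM (23.0 to 58.2), Klrb1c 65.9 and Klrb1f 50.8, while TG had 17 such cells. The WT Klrb1b value rests on 20 UMIs in 11 cells, of which the 3 richest held 60%. In macrophages Klrb1b was 37.6 CPM (23.8 to 56.4) in TG and 19.3 (12.7 to 28.1) in WT, where the NKT value of 21.5 (18.1 to 25.3) lay within that interval, while no UMI was found in 734 WT CD4 T cells, an upper bound of 1.89 CPM. In macrophages 4 of the 4 members with 20 UMIs were higher in TG, where 15.2% of 8249 genes were, and 0 were lower, where 11.4% were. At least 2 UMIs of T or NK genes were found in 68.8% of TG and 31.4% of WT macrophages. In WT macrophages with fewer than 2, Klrb1c was 3.39 CPM, against 62.2 in the others, and Klrb1b was 18.1 (10.3 to 29.3) against 21.4. In TG macrophages the same groups gave 14.3 and 180 CPM of Klrb1c, and 35.8 (11.6 to 83.6) and 38.1 of Klrb1b, the former from 5 UMIs. In WT mature B cells with fewer than 2, Klrb1b was 0.413 CPM. Klrb1c in macrophages thus varied with lymphocyte transcripts in the same cells, and Klrb1b did not to the same degree.

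Of 25 ligands, adaptors, kinases, phosphatases and transcription factors of NKR-P1 and NKp46 signalling, 22 were in the count table. In NK cells 21 had 20 UMIs, and 2 were higher and 3 lower in TG, where 9.74% and 11.6% of all genes were, with a median log2 ratio of 0.05 against -0.04 for all genes. The counts of the list were thus near those of all genes. Among ligands, Clec2d, whose product Klrb1b binds, was 328 CPM in TG and 348 in WT NK cells, and Clec2i, whose product Klrb1f binds, 68.8 and 101. Among adaptors, Fcer1g was 1777 and 2499 CPM (-0.49) and Tyrobp, the gene of DAP12, 1552 and 2305 (-0.57), while Hcst, the gene of DAP10, was higher in TG at 803 and 489 (0.72). Syk, a kinase downstream of such adaptors, was 59.6 and 126 CPM (-1.08). Of transcription factors, Eomes was 139 and 333 CPM (-1.26), Nfil3 60 and 94 (-0.65) and Zbtb16 22.3 and 9.96 (1.17). Zbtb16 and Hcst were the 2 higher genes.

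In cluster 8 the adaptors were at near levels, with Fcer1g at -0.02 and Tyrobp at 0.10 on the log2 scale. There 1 of 19 genes was higher, Tbx21 at 421 and 263 CPM, and 3 were lower, Clec2i at 28.3 and 68.9, Eomes at 391 and 692 and Nfil3 at 65.5 and 121, where 9.73% and 13.1% of all genes were. In cluster 3, Tyrobp was 978 CPM in TG and 2173 in WT (-1.15), Fcer1g 1541 and 2503 (-0.70) and Syk 39.3 and 86.4 (-1.14), and 5 of 21 genes were higher and 3 lower, where 11.5% and 12.7% of all genes were. In cluster 11, Fcer1g was 1577 and 2894 CPM (-0.88), Tyrobp 1371 and 2052 (-0.58) and Syk 21.6 and 108 (-2.32), the last from 20 and 5 UMIs, and 2 of 20 genes were higher and 6 lower, where 31.6% and 23% were. The part of the CD3 transcripts of TG cells in these ratios was not tested.

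Fcer1g and Tyrobp were higher in TG in NKT, CD8αβ and CD4 T cells. Both were also found in mature B cells, the background, where Fcer1g was 72.3 CPM in TG and 43.7 in WT (0.73) and Tyrobp 75.3 and 59.8 (0.33). Tyrobp in NKT and CD4 T cells lay below these B cell levels in both genotypes, and so did Fcer1g in WT CD4 T cells. Those ratios are thus at or near background. Of the 20 genes of the list tested in mature B cells, 1 was higher in TG and 7 were lower, where 6.05% and 8.07% of all genes were. In macrophages 4 of 19 were higher and 0 lower, where 15.2% and 11.4% were. In NKT cells Fcer1g was 152 CPM in TG and 44.7 in WT (1.76) and Tyrobp 70.2 and 27.6 (1.35), with Syk at 19.3 and 8.93 (1.11), while Cd247, the other adaptor of NKp46, was 112 and 123 (-0.14). Inpp5d was the fourth gene higher in TG, at 148 and 97.5, and the 2 lower were Ptpn6, at 149 and 240, and Zbtb16, at 43.0 and 107, so 4 and 2 of 21 genes were called where 10.2% and 7.69% of all genes were. In CD8αβ T cells Fcer1g was 290 and 83.8 CPM (1.79), Tyrobp 176 and 57.1 (1.62) and Tbx21 209 and 60.7 (1.78), with Cd247 at 132 and 169 (-0.36). In all 5 of 21 genes were higher there and 1, Zbtb16, lower, where 11.4% and 8.23% of all genes were. In CD8αα T cells 2 of 20 were higher, Hcst at 907 and 593 CPM and Prdm1 at 59.6 and 29.1, and 1 was lower, Clec2i at 102 and 162, where 14.1% and 9.09% of all genes were. Fcer1g was 1704 and 2229 CPM (-0.39) and Tyrobp 1176 and 1582 (-0.43) in these cells. In CD4 T cells 8 of 19 genes were higher and 0 lower, where 16.3% and 9.81% of all genes were, with Fcer1g at 87.6 and 11.8 CPM (2.89), Tyrobp at 55.6 and 13.9 (2.00), Nfil3 at 42.6 and 11.3 (1.91) and Prdm1 at 80.5 and 29.3 (1.46). Of the members themselves, 0 of the 2 with 20 UMIs were past 1.5-fold in CD4 T cells. In γδ T cells, with 17 cells in TG, 4 of 16 genes of the list were higher and 2 lower, and 1 of 3 members was higher and 0 lower, where 17.6% and 25.8% of all genes were.

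The genes with the most similar patterns were found over 39 profiles, 1 for each cluster and genotype with 50 or more cells, among 9776 genes. Ncr1 was most like Klrb1a (Pearson's r 0.96), then Adamts14 (0.93), Tnfsf12 (0.92), Klra9 (0.90) and Spry2 (0.89). Klrb1a was most like Ncr1 (0.96), Adamts14 (0.95), Tnfsf12 (0.93), Spry2 (0.91) and Klra9 (0.89). Klrb1c followed Klre1 (0.94), Klrc2 (0.92), Klrk1 (0.91), Klrb1f (0.89) and Sulf2 (0.87), the first 3 of which encode lectin-like NK receptors. Klrb1f followed Gzmb, the gene of granzyme B (0.90), then Klre1, Klra9, Klrb1c and Klrk1 (0.89 each). Klrb1b was most like Klri2 (0.88), Clnk and Styk1 (0.83 each), and Ncr1 and Tnfsf12 (0.82 each). Styk1 was most like Aoah and Ncr1 (0.88 each), Klrb1a (0.86), Tnfsf12 (0.84) and Klrb1b (0.83). Klrb1a and Ncr1, Klrb1c and Klrb1f, and Klrb1b and Styk1 were thus each among the 5 genes most like the other. The profiles of a genotype share a library, and r is a description.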

How the data were processed

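The deposited RNA table holds UMI counts of 13528 genes in 11929 named cells, made by the authors with STAR in the BD Rhapsody pipeline on mm10 (GRCm38) and filtered by them. The antibody tables hold deposited counts of 49 antibodies and the authors' centred log ratios on a natural log scale, which were recomputed from the counts with 0 of 584521 values off by more than 1e-06. Cluster numbers and cell names are those of the authors, made in Seurat after CCA, and the percent of mitochondrial counts in the deposited metadata was not used. The first library held 10026 cells and the second 24111, of which 5379 and 16829 had no genotype name, and 267 cell indices occurred in both libraries (36 among named cells).

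UMIs of each member were summed per class or cluster and genotype and given as CPM of the total UMIs of the same cells. Log2 ratios, their background over all genes of at least 20 UMIs, the antibody gate and thinning to 1000 UMIs per cell were computed with Python 3.11.15, numpy 2.4.6, scipy 1.17.1 and pandas 2.3.3. Scrublet in scanpy 1.11.5 marked 39 TG and 242 WT cells as doublets, which were kept and left out only in an alternative, as were 858 TG and 503 WT cells with at least 2 UMIs of each of 2 lineages. TMM factors were from edgeR 4.0.16 in R 4.3.3. Sequences are RefSeq promoters of GRCm38.p6, which held 5 of the 6 members, and gene positions and exons are from GENCODE vM21. Likeness was Pearson's r of log2(CPM + 10) among genes with at least 200 UMIs. The computation was tested on simulated data. The named genes are all members, the pathway list and the 5 most similar genes of each member. Marker genes of cell types come from lists written with that rule, and those shown, with Klrb1, were chosen after their values were seen. The members and lists were chosen with earlier results of these data known.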

Additional observations from a re-analysis of the deposited data

Results flagged for a closer look

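Several ratios of TG over WT had opposite signs in different cell types, and the differences between them were not tested because there was 1 library per genotype. The log2 ratio of Klrb1c in CD8αβ T cells exceeded that in NK cells by 1.02 and that in NKT cells by 1.48. The log2 ratio of Ncr1 exceeded that in NK cells by 3.64 in NKT cells and by 2.61 in CD8αβ T cells. The NKT value of Ncr1 rests on 29 TG and 15 WT UMIs, and the NK value, -0.79, was -0.16 in cluster 8.

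The cells without a genotype name, which entered no comparison, also held UMIs of all 6 genes. In the first pool (TG with IFN-γ ARE-Del-/-) they had 30.8 CPM of Klrb1a, 27.4 of Klrb1b, 214 of Klrb1c, 61.6 of Klrb1f, 79.4 of Ncr1 and 12 of Styk1, beside 41.4, 17.3, 295, 97.0, 112 and 8.48 in the named TG cells. In the second pool (WT with p40-/-IL-2Rα-/-) they had 5.63 CPM of Klrb1a, 8.61 of Klrb1b, 54.0 of Klrb1c, 23.5 of Klrb1f, 19.7 of Ncr1 and 3.26 of Styk1, beside 23.5, 51.2, 387, 46.8, 82.9 and 7.65 in the named WT cells. The unnamed cells of a pool stand for no single genotype, and these are values summed over all cell types.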

How the results depend on the processing

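No paired analysis was possible because each genotype has 1 library, and for the same reason no replicate was left out. Of 198 log2 ratios recomputed in NK, NKT and CD8αα T cells, 161 stayed within the counting interval of the main value, 33 moved outside it and 4 reversed. A ratio was called reversed only if its sign turned and the main value was past 1.5-fold with at least 20 UMIs. Other ratios also changed sign, such as Klrb1f in NK cells, at 0.22 in all and -0.04 in cluster 8. The ratios of CD8αβ T cells were not recomputed. Of 36 shares of cells with a UMI, 34 moved after thinning and 2 did not. Thinning can only lower such a share or leave it, so this count was largely fixed in advance. An unthinned share depends on depth, and the count does not bear on TG against WT. Of 40 antibody differences 20 stayed within the main interval, 18 moved outside it and 2 reversed. A difference was called reversed only if its sign turned and the main interval excluded 0. Others, such as NK1.1 in NKT cells, also changed sign. Under the 8 settings of scaling, depth and cell filters 139 of 144 were kept. Not all of these settings put a ratio to a test. The setting without a minimum count leaves every log2 ratio as it was. The setting with counts of the library files used the same member counts as the main values. Part of the 139 was therefore fixed in advance. The settings by Cd3d, Cd3e or Trac and the antibody gate from cluster 1 were chosen after seeing the data.

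Klrb1b in NK cells (-2.61) was -2.33 after thinning, -0.71 in cluster 8, -4.40 in cluster 11, -0.38 in cells without the 6 T cell genes, -1.20 without and -3.04 with Cd3d, Cd3e or Trac, and 0.21 in cluster 3 cells without them. In those cluster 3 cells Ncr1 was 0.0927, and Styk1 was 0.0033 in cluster 3 and 0.73 without the 6 T cell genes. The 0 NK members higher in TG became 1 in cluster 11 and 1 without the 6 T cell genes. The 3 lower became 1 in cluster 8, 0 without the 6 T cell genes, 1 without Cd3d, Cd3e or Trac and 0 in cluster 3 without them. In NKT cells the 3 higher became 0 after thinning and 1 in cluster 0, and the 2 lower became 1 after thinning. In CD8αα T cells the 2 lower became 0 after thinning and 1 without Trdc cells. Thinning leaves fewer UMIs and so fewer members past 20, and so do the smaller sets of cells. The share of all genes past 1.5-fold was not computed after thinning or in the sets chosen by T cell genes or Trdc. These counts therefore cannot be set against all genes.

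The antibody differences, in points, depended on the gate. For NK1.1 in NK cells 14.1 became -17.0 with a mixture gate, 5.70 with the 95th percentile, 19.3 by share of antibody counts and 7.48 with cluster 1 as the reference. In NKT cells 2.42 became -20.0, -5.63, 7.76 and -5.51 in the same order. In CD8αα T cells 20.4 became -9.62 with the mixture and 39.8 by share, and in CD8αβ T cells 9.78 became 0.344 with the mixture and 22.1 with the 95th percentile. For CD335 in NK cells -11.2 became -30.6 with the mixture and -18.7 with the 95th percentile. With the mixture and by share CD335 became -13.5 and 5.34 in NKT cells, -17.1 and 16.5 in CD8αα T cells and -17.9 and 3.03 in CD8αβ T cells. The cause was not tested.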
